A study of Mus musculus with 2 samples.

Results

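The FGF receptors and FGF ligands of cultured primordial germ cells (PGCs) were examined in 10 genes, taken as every row of the expression files whose gene name was Fgfr1, Fgfr2, Fgfr3, Fgfr4, Fgfrl1, Fgf2, Fgf4, Fgf5, Fgf7 or Fgf8. All 10 were found, among 23320 gene names present in both files, and all had a value above 0 in both libraries. The PGCs were sorted for intense GFP from the genital ridges of male and female E13.5 embryos of MCH females mated to Oct4-deltaPE-GFP males, infected with a control lentivirus or a lentivirus carrying the coding region of Klf9 (Klf9-OE) at an MOI of 5, and cultured for 1 day. Each condition had 1 library, so no difference has a replicate check. The cells for RNA-seq were cultured on gelatin-coated plates and not on the feeder layer used for EGC colonies, as the methods describe it. The labels describe the medium as containing bFGF, which is the FGF2 protein, whereas the paper describes it as lacking bFGF, with the same medium for both libraries. Where bFGF is used in this study it is added as human protein, which the RNA of Fgf2 does not measure. Which of the empty and mCherry vectors served as control for the RNA-seq, and how many embryos were pooled, is not given in the sources used here.

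FGFs are secreted proteins that bind receptor tyrosine kinases on the cell surface together with heparan sulfate. Binding pairs the receptors, which pass the signal through the adaptor FRS2 to the RAS-ERK and PI3K-AKT pathways, and ERK in turn induces feedback inhibitors and ETS transcription factors. Fgfr1 to Fgfr4 encode the kinase receptors. Fgfrl1 encodes a receptor that binds FGF but has no tyrosine kinase domain. Addition of bFGF in the first days of culture is a classical requirement for the conversion of PGCs into pluripotent EGCs.

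The RNAs of all 5 receptor genes were lower after Klf9-OE, by 8.45% to 48.5%, and none of them was 2-fold lower. The values are reads scaled to transcript length and library depth (RPKM) with the 95% interval that Cufflinks gives, which covers the estimation within 1 library and not the difference between cultures. Intervals did not overlap for Fgfrl1, Fgfr3 and Fgfr2 and overlapped for Fgfr1 and Fgfr4. The ligands showed no common direction. Fgf8 and Fgf2 were lower and Fgf4, Fgf5 and Fgf7 were higher in Klf9-OE PGCs, with overlapping intervals for each of the 5 ligands.

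**Figure D1:**
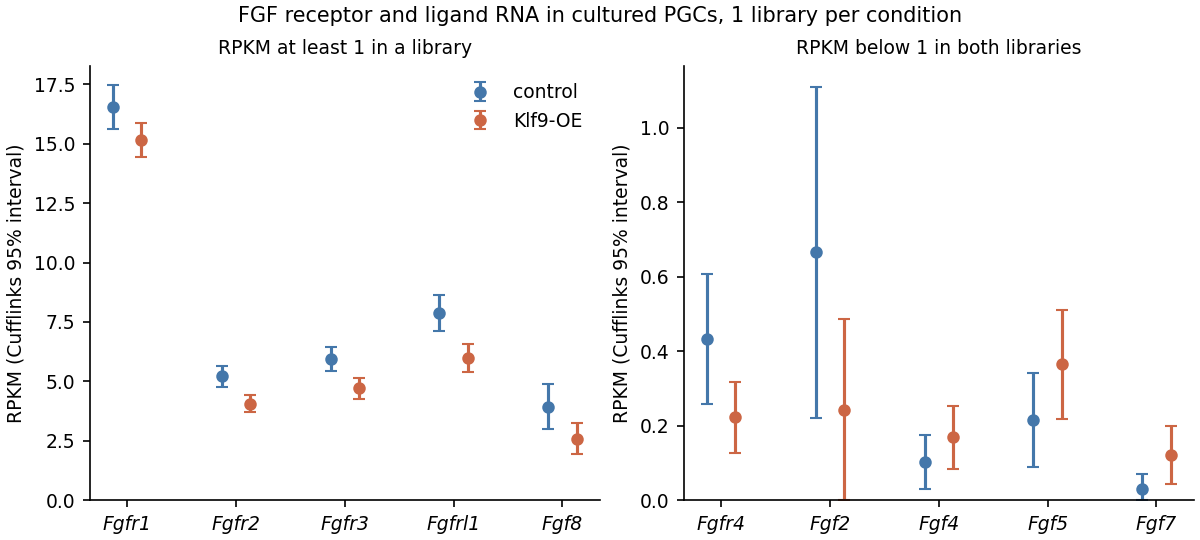
RPKM of the 10 FGF genes in the control library (blue) and the Klf9-OE library (orange), with Cufflinks 95% intervals as bars, for genes that reach an RPKM of 1 (left) and genes below 1 in both libraries (right). Intervals are separate for Fgfr2, Fgfr3 and Fgfrl1, and the interval of Fgf2 in Klf9-OE PGCs reaches 0.

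Fgfr1 had the highest RNA level of the 10 genes in both libraries. Its RPKM (chr8:25518759-25575718 of mm10, forward strand) was 16.6 (15.6–17.5) in the control library and 15.2 (14.4–15.9) in the Klf9-OE library. The log2 fold change, with 0.1 added to each RPKM and taken as Klf9-OE over control, was -0.13. The libraries overlapped, and the difference was the smallest among the receptors. Fgfr1 made up 58.8% of the summed RPKM of the 4 kinase receptors in control PGCs and 62.8% in Klf9-OE PGCs.

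Fgfrl1, the receptor without a kinase domain, was second. Its RPKM (chr5:108694229-108706950, forward strand) was 7.88 (7.11–8.64) in control and 5.98 (5.38–6.58) in Klf9-OE PGCs (log2 fold change -0.39). Fgfrl1 is the only receptor gene that Cufflinks quantified on the same annotated transcript in both libraries. For such genes the width of the interval gives an implied number of reads, which need not be whole. For Fgfrl1 the width implied 425 reads in control and 396 in Klf9-OE PGCs. The depth of the Klf9-OE library, inferred from implied reads and RPKM, was 1.22 times that of the control library (median over 2798 genes). The ratio of the RPKM was 0.759, with an exact (Clopper-Pearson) 95% interval of 0.664 to 0.878 that covers counting error only. Implied read numbers from 1 to 9 were even for 87.6% of 1817 genes in the Klf9-OE library and 36.1% of 2177 in the control library, and whether Klf9-OE reads were entered in pairs was not tested. With the Klf9-OE reads counted in pairs, the inferred depth was 0.610 times that of the control library. The interval of the RPKM ratio was then 0.642 to 0.906.

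Fgfr3 (chr5:33721724-33737068, forward strand) measured 5.95 RPKM (5.44–6.45) in control and 4.70 (4.27–5.14) in Klf9-OE PGCs (log2 fold change -0.33). Fgfr2 (chr7:130162451-130266808, reverse strand) had 5.21 (4.76–5.67) and 4.07 (3.73–4.41), a log2 fold change of -0.35. The control intervals lay above the Klf9-OE intervals for both, also when the Klf9-OE intervals were widened for reads entered in pairs, to an upper bound of 5.32 for Fgfr3, 4.55 for Fgfr2 and 6.83 for Fgfrl1. Fgfr2 and Fgfr3 each produce splice forms that bind different FGFs, and a single value per gene does not separate them.

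Fgfr4 was the least abundant receptor RNA. Its RPKM (chr13:55152818-55168759, forward strand) was 0.432 (0.258–0.606) in control and 0.223 (0.128–0.317) in Klf9-OE PGCs. The log2 fold change of -0.72 was the largest among the receptors at the pseudocount of 0.1, on intervals that overlapped. With a pseudocount of 1 it was -0.23, smaller in size than the -0.35 of Fgfrl1. The summed RPKM of the 5 receptor genes was 36.0 in control PGCs and 30.1 in Klf9-OE PGCs, a ratio of 0.837.

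Read against all genes, 3 of 10 FGF genes were lower with separate intervals and none was higher. Of the 18742 genes above 0 in at least 1 library, 14.4% were lower with separate intervals and 11.2% were higher. Separation needs reads, and among the 12565 genes that reached an RPKM of 1 in either library the shares were 20.2% and 14.8%. The median log2 fold change was -0.34 over the 10 FGF genes, -0.35 over the 5 receptors and -0.02 over all 18742 genes, of which 52.0% were below 0.

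Promoters are shown for the 3 receptor genes whose intervals were separate, with the upstream of the annotated starts for Fgfr3. Each runs from 250 bases before to 50 bases after the start, 5′ to 3′ on the strand of the gene (RefSeq, GRCm38.p6). Capitals mark the GC box GGGCGG and the box CACCC on either strand, letters that KLF and SP factors are known to bind.
Fgfr2, chr7:130266759-130267058, reverse strand: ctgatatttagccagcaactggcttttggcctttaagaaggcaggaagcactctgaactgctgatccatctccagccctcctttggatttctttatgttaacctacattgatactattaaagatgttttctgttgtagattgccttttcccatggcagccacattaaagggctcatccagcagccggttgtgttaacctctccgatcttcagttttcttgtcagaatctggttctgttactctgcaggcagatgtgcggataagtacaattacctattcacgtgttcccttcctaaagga
Fgfr3, chr5:33721474-33721773, forward strand: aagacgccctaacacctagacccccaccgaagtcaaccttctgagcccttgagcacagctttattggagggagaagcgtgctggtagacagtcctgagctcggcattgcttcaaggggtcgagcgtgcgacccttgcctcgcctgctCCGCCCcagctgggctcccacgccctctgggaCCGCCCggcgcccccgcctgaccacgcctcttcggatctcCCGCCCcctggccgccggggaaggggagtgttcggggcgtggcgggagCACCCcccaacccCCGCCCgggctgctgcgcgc
Fgfrl1, chr5:108693979-108694278, forward strand: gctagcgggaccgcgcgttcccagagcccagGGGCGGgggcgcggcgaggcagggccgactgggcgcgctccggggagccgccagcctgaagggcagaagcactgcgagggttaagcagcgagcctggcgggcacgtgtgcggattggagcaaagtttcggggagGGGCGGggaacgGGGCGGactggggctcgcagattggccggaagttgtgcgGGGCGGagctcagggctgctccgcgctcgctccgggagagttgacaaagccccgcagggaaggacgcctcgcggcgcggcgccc
The windows of Fgfr3 and Fgfrl1 held 4 GC boxes each and that of Fgfr2 held none. CACCC occurred once in the Fgfr3 window and in neither of the others, and the letters of the boxes did not overlap. The second start of Fgfr3 had 2 GC boxes, and the Fgfr4 window had 4 with 1 CACCC that overlaps the last of them. Among the ligands, Fgf5 had 5 CACCC and 1 GC box, Fgf2 had 2 and 1, Fgf4 had 2 GC boxes alone, and Fgf7 had neither. Of 32851 promoter windows, 35.7% held GGGCGG and 57.5% held CACCC, and 5.49% held GGGCGG at least 4 times. The base composition differed as well, with a GC content of 43.7% for Fgfr2, 69.7% for Fgfr3 and 73.7% for Fgfrl1. Promoter sequences were matched for 8 of the 10 genes, without Fgfr1 and Fgf8. No binding of KLF9 was measured in these cells.

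Fgf8 was the most abundant ligand RNA among the 5. FGF8 acts in gastrulation, limb and brain patterning. Its RPKM (chr19, reverse strand, from 45736798) was 3.93 (2.99–4.88) in control and 2.59 (1.96–3.23) in Klf9-OE PGCs (log2 fold change -0.58). The intervals overlapped. Fgf8 made up 79.5% of the summed RPKM of the 5 ligands in control PGCs and 74.3% in Klf9-OE PGCs.

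Fgf2, which encodes bFGF itself, was the only one of the 10 genes that passed a 2-fold difference with 0.1 added to each RPKM. Its RPKM (chr3:37348653-37404830, forward strand) was 0.666 (0.222–1.11) in control and 0.243 (0–0.485) in Klf9-OE PGCs (log2 fold change -1.16). These values rest on 9 implied reads in control and 4 in Klf9-OE PGCs. The ratio of 0.364 had an exact 95% interval of 0.0820 to 1.31, and of 0.0383 to 1.76 with Klf9-OE reads in pairs, so that no difference was detectable at this depth. At 2-fold, 4.0% of all 18742 genes were lower and 4.52% were higher. With a pseudocount of 1 the log2 fold change of Fgf2 was -0.42, short of 2-fold, and with a pseudocount of 0.01 Fgf7 passed 2-fold as well, at 1.73 and higher in Klf9-OE PGCs.

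Fgf4, Fgf5 and Fgf7 were higher in Klf9-OE PGCs on few reads. Fgf4, an ERK-activating ligand of pluripotent stem cells, measured 0.103 RPKM (0.0301–0.175) in control and 0.169 (0.0843–0.253) in Klf9-OE PGCs. The implied reads were 8 and 16, and the ratio was 1.64 with an exact interval of 0.662 to 4.42. Fgf5, a marker of the post-implantation epiblast, had 0.216 (0.0888–0.342) and 0.364 (0.218–0.511), on 11.6 and 24.9 implied reads. Its ratio was 1.69 with an exact interval of 0.827 to 3.73. Fgf7, a ligand of mesenchymal cells that acts on the epithelial splice form of FGFR2, had 0.0294 (0–0.0711) and 0.121 (0.0427–0.198). Its implied reads were 1.99 in control and 9.59 in Klf9-OE PGCs, and the ratio of 4.10 had an exact interval of 0.873 to 38.5. All 3 intervals of the ratio included 1. The log2 fold changes were 0.40 for Fgf4, 0.56 for Fgf5 and 0.77 for Fgf7. Fgf4 lies at chr7:144861386-144865243, Fgf5 at chr5:98254184-98277033 and Fgf7 at chr2:126034658-126091185, all on the forward strand. Fgf7 lies inside Fam227b, which was listed at 0 in both libraries.

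**Figure D2:**
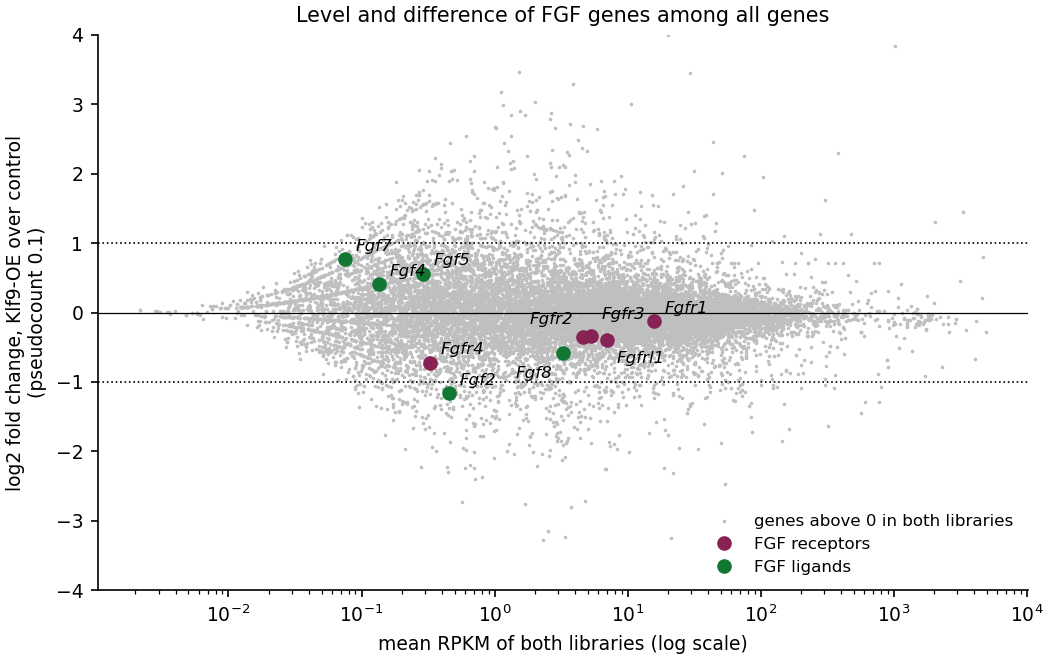
Log2 fold change of Klf9-OE over control (pseudocount 0.1) against the mean RPKM of both libraries (log scale), for genes above 0 in both libraries (grey), the 5 FGF receptors (purple) and the 5 FGF ligands (green). Dotted lines mark 2-fold, which only Fgf2 passes among the FGF genes at this pseudocount, and genes beyond 4 in log2 fold change lie outside the axis.

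In control PGCs the order of the levels was Fgfr1, Fgfrl1, Fgfr3, Fgfr2, Fgf8, Fgf2, Fgfr4, Fgf5, Fgf4 and Fgf7. RPKM is per length, so the levels of different genes can be compared. Only 3 of the 9 pairs of neighbours in this order were apart by their intervals, namely Fgfr1 from Fgfrl1, Fgfrl1 from Fgfr3 and Fgf8 from Fgf2. In Klf9-OE PGCs the first 5 genes kept this order, and Fgf5, Fgf2, Fgfr4, Fgf4 and Fgf7 followed. There, 4 of 9 pairs were apart, and 3 with intervals widened for reads entered in pairs, when Fgfrl1 and Fgfr3 overlapped. Among the 5 genes of low level no neighbours were apart in either library. Between genes that were not neighbours, Fgf2 and Fgfr4 lay above Fgf4 and Fgf7 in control PGCs, as did Fgf5 above Fgf7. In Klf9-OE PGCs Fgf5 alone lay above Fgf7, and these overlapped with widened intervals. Fgfr1 was above 71.8% of the genes detected in control PGCs and above 70.2% of those in Klf9-OE PGCs, and Fgf7 was above 3.996% and 11.2%.

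Part of the values depends on the transcript that Cufflinks used. In each library separately, Cufflinks either kept the annotated transcript of a gene or assembled one from the reads. Fgfr1, Fgfr2 and Fgfr3 were quantified on assembled transcripts in both libraries, and Fgfrl1, Fgf2, Fgf4, Fgf5 and Fgf7 on the annotated one in both. Fgfr4 and Fgf8 were assembled in the control library only. The locus of Fgf8 ended at 45746764 in the control library and at 45742884 in the Klf9-OE library, so that in control it reached beyond the 45742915 where GENCODE places the start of this reverse-strand gene. Of the 2516 genes assembled in the control library only, 24.8% were lower with separate intervals and 6.88% were higher, and 65.7% had a log2 fold change below 0. Of the 1521 genes assembled in the Klf9-OE library only, 10.1% were lower and 21.8% were higher. Where the annotated transcript was used in both libraries, the shares were 8.07% and 7.37% of 8245 genes, and where both were assembled 19.4% and 15.2% of 6460 genes. The lower values of Fgfr4 and Fgf8 thus belong to a class of genes that were mostly lower. The part of the transcript model in them was not tested.

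The germ cell identity of the libraries and the share of other cells were read from marker genes. Klf9 itself measured 2.27 RPKM (1.97–2.57) in control and 80.8 (77.0–84.5) in Klf9-OE PGCs. All 15 germ cell markers were above 0 in both libraries, with Pou5f1, Dazl and Ddx4 the most abundant, none was changed 2-fold, and 10 were lower and 3 higher with separate intervals, beside 20.2% and 14.8% of all genes that reached an RPKM of 1. Their summed RPKM was 1924 in control and 1681 in Klf9-OE PGCs. Of 13 gonad somatic markers, 5 were higher and 1 was lower with separate intervals, beside 11.2% and 14.4% of all genes above 0. The higher and lower shares were 14.8% and 20.2% among genes that reached an RPKM of 1, as 9 of the 13 did. The sum of the gonad somatic markers was 30.1 in control and 38.6 in Klf9-OE PGCs. Cyp17a1 was listed at 0 in Klf9-OE PGCs. Star was listed at 0 in control PGCs under an assembled transcript, where a 0 can be a failed estimate. Star is 1 of the 5 higher markers and adds 2.39 to the Klf9-OE sum. Of 11 mesenchymal or fibroblast markers, 4 were higher and none was lower, beside 11.2% and 14.4% of all genes above 0. Their sum was 38.5 and 46.5, with Lum listed at 0 in control PGCs. The endothelial sum was 20.3 and 30.5 over 6 markers, most of it Pecam1, which germ cells also express. Of the 6, 2 were higher and 1 was lower, beside the same shares of all genes, and Emcn was listed at 0 in Klf9-OE PGCs. The epithelial sum was 80.8 and 94.2 over 5 markers, of which Epcam alone gave 40.0 and 49.1. The macrophage sum was 4.94 and 5.96 over 7 markers. These sums rest on few genes, and single markers went both ways. The median log2 fold change was -0.35 over the macrophage markers, of which 4 of 7 were below 0, and 0.04 over the gonad somatic markers, of which 6 of 13 were below 0. Besides Star, the gonad somatic markers that were higher with separate intervals were Wt1, Gata4, Amh and Lhx9. Pecam1 and Cdh5 among the endothelial and Epcam and Krt18 among the epithelial markers were higher as well. Cdh5 rose by 1.31 in log2 fold change. The only marker lower with separate intervals was Sox9, of Sertoli cells, in the gonad somatic list, Tek in the endothelial list and Krt8 in the epithelial list. The part of the cell mixture in the receptor values was not tested. In such bulk RNA, fewer cells of a type and less RNA per cell cannot be told apart.

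The other secreted FGFs were mostly at low levels. Of 13 genes, 11 were above 0, and 1 was lower by 2-fold and none was higher, beside 4.0% and 4.52% of all genes. Fgf17, a close relative of Fgf8, was the most abundant, with an RPKM of 4.57 (3.80–5.33) in control and 2.87 (2.29–3.45) in Klf9-OE PGCs. Its log2 fold change was -0.65, its intervals did not overlap, and its transcript was assembled in both libraries. Fgf17 and Fgf8 were thus the only secreted FGFs with an RPKM above 2 in either library. Fgf18 had 0.681 (0.391–0.971) and 1.03 (0.714–1.34), and Fgf22 had 0.510 (0–1.02) and 0.418 (0–0.836), both with overlapping intervals. The gene past 2-fold was Fgf9, a ligand of the gonad, at 0.170 in control PGCs and listed at 0 in Klf9-OE PGCs under an assembled transcript. The median log2 fold change of the 11 genes was -0.19. Of the 4 FGF genes whose proteins stay inside the cell, Fgf11 had 11.3 (10.5–12.1) and 11.9 (11.04–12.7), Fgf13 had 4.25 (3.70–4.81) and 3.25 (2.81–3.68), a log2 fold change of -0.38 with separate intervals, and Fgf12 had 0.131 and 0.170. None of the 4 was changed 2-fold.

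Among co-receptors and matrix proteins that hold FGF at the cell surface, none of 19 genes was changed 2-fold, and the median log2 fold change was 0.04. By separate intervals 2 were higher and 4 lower, beside 11.2% and 14.4% of all genes. The most abundant was Sdc4, a heparan sulfate carrier, with an RPKM of 223.9 (213.9–233.9) in control PGCs and 217.0 (207.4–226.6) in Klf9-OE PGCs. Gpc2, a glypican, was higher, at 18.3 (17.0–19.6) and 24.3 (22.8–25.9), and Agrn was lower, at 19.7 (18.8–20.6) and 17.8 (17.2–18.3). The transcript of Agrn was assembled in the control library only. Klb, the co-receptor of the hormone-like FGFs, was listed at 0 in control PGCs and had 0.0736 (0.0216–0.126) in Klf9-OE PGCs. It is 1 of the 2 higher genes only because the interval of a value of 0 has no width.

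Of 25 genes for the enzymes that build or trim heparan sulfate, 2 were higher and 1 was lower by 2-fold, beside 4.52% and 4.0% of all genes. Their median log2 fold change was 0.03. Extl1, of the exostosin family, rose in log2 fold change by 1.12, with an RPKM of 0.854 (0.675–1.03) in control and 1.98 (1.72–2.24) in Klf9-OE PGCs, and was assembled in the Klf9-OE library only. The other two were listed at 0 in 1 library under an assembled transcript. Ndst1 had 6.31 in control PGCs and 0 in Klf9-OE PGCs, and B3galt6 had 0 in control PGCs and 2.35 in Klf9-OE PGCs. Sulf1, which removes sulfate groups that FGF binding needs, had 23.8 (22.6–24.96) and 25.6 (24.5–26.8), with overlapping intervals. B3gat3, which acts on the linker of the sugar chain, had 22.6 (20.8–24.3) and 16.7 (15.3–18.1), and the Klf9-OE interval of Ext2, at 12.99 and 12.3, reached down to 0.

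Of 28 genes for proteins that carry the receptor signal inside the cell, none was changed 2-fold, and the median log2 fold change was 0.00. By separate intervals 3 were higher and 7 lower, beside 14.8% and 20.2% of all genes that reached an RPKM of 1, as these 28 did. Map2k2, a kinase of the RAS-ERK pathway, had an RPKM of 97.5 (92.6–102.5) and 107.0 (99.5–114.6), with overlapping intervals. Akt2 had 118.8 (114.3–123.3) and 93.6, where the Klf9-OE interval has a lower bound of 0 and no useful upper bound. Frs2 and Shc1 were not compared, since 1 of the files lists each of them jointly with a neighbouring gene.

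The feedback inhibitors and ERK target genes stood in contrast to the receptors in direction. Of 18 genes, 17 were above 0, and 9 were higher by 2-fold and none was lower, beside 4.52% and 4.0% of all genes. The median log2 fold change of the 17 was 1.06. With separate intervals 13 were higher, beside 14.8% of all genes that reached an RPKM of 1, as the 17 did. Etv4, Spry4, Etv5 and Dusp6 had the largest rises, with log2 fold changes of 3.0, 2.79, 2.04 and 1.70. Etv1, at 1.43, and Dusp4, at 1.35, followed. Dusp5 had a log2 fold change of 1.06, whereas Ier3, at an RPKM of 28.6 (26.4–30.8) and 31.5 (29.4–33.6), had overlapping intervals. Of the named genes that rose, Spry4 and Dusp6 were quantified on the annotated transcript in both libraries. This rise was known before the list was written and is given only to set the receptors beside it. The receptor RNAs were lower in the same library, with a median log2 fold change of -0.35. RNA levels do not measure receptor protein or its activity.

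**Figure D3:**
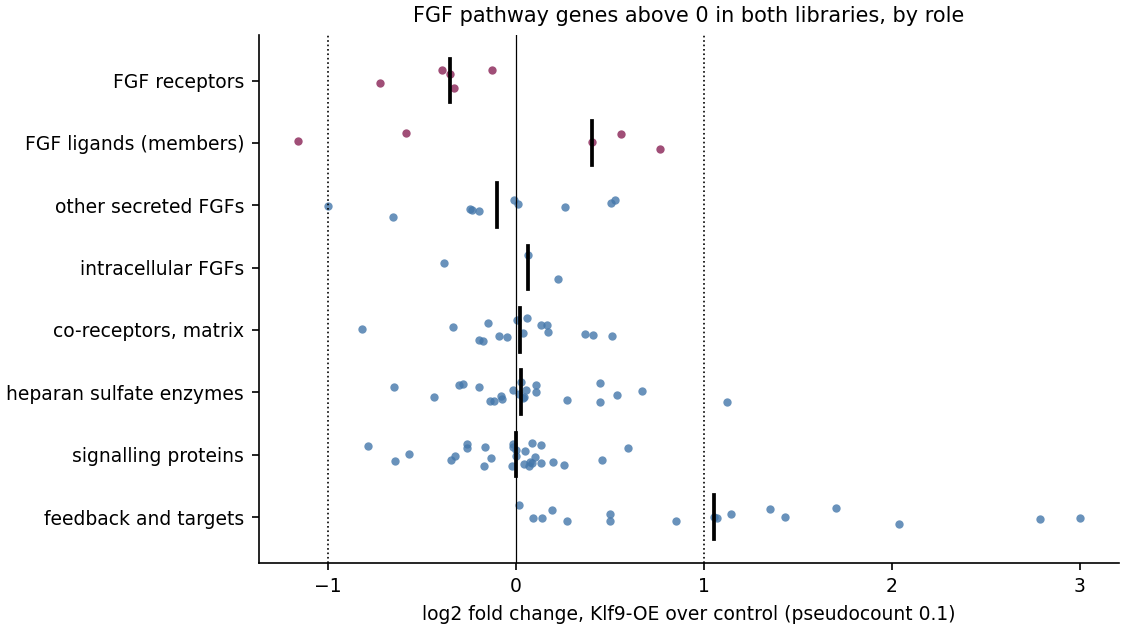
Log2 fold change of Klf9-OE over control (pseudocount 0.1) of FGF pathway genes above 0 in both libraries, 1 point per gene, grouped by role, with the median of the plotted genes as a black bar and dotted lines at 2-fold. The 5 receptors lie between -0.72 and -0.13, and the feedback and target genes lie between 0.02 and 3.0.

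The FGF receptors were set beside other receptor tyrosine kinases, of which 48 could be compared. Among all 52, Fgfr1 ranked 6th in control and 7th in Klf9-OE PGCs, Fgfr3 ranked 11th and 12th, Fgfr2 13th and 14th, and Fgfr4 37th and 39th. Of the 48 others, 17 were lower and 9 were higher with separate intervals, 2 were lower and 3 were higher by 2-fold, and the median log2 fold change was -0.05. Over all genes the shares with separate intervals were 14.4% lower and 11.2% higher, and 20.2% and 14.8% among genes that reached an RPKM of 1, as 29 of the 48 did. By 2-fold, 4.0% of all genes were lower and 4.52% were higher. The most abundant of them, Ddr1, Ryk and Ptk7, had log2 fold changes of -0.15, -0.55 and -0.32 and separate intervals. Kit, the receptor on which PGC survival depends, was lower as well, at 23.0 (21.9–24.1) and 16.8 (15.95–17.6), a log2 fold change of -0.45. Ret, the GDNF receptor, rose by 1.32 in log2 fold change, from 10.03 (9.46–10.6) to 25.2 (24.1–26.4), and passed Fgfr1 in level, having been above Fgfr2, Fgfr3 and Fgfr4 already in control PGCs. Flt4 rose from 0.445 (0.336–0.553) to 1.30 (1.13–1.47) and Csf1r from 0.307 (0.196–0.417) to 1.18 (0.834–1.53), whereas Ror1 fell by 1.33 in log2 fold change, from an RPKM of 0.598 to 0.178, and Flt3 fell from 1.53 (1.25–1.801) to 0.690 (0.534–0.846). Kit, Ptk7 and Flt3 were assembled in the control library only, and Csf1r in the Klf9-OE library only. The part of the transcript model in these differences was not tested.

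**Figure D4:**
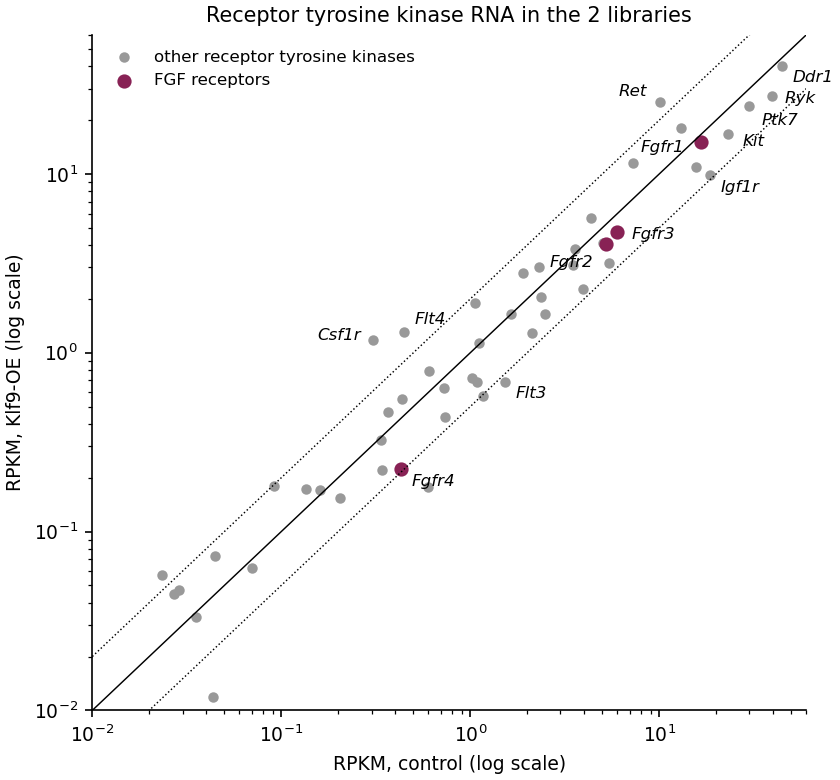
RPKM of 52 receptor tyrosine kinases in Klf9-OE PGCs against control PGCs, both on log scales, with FGF receptors in purple, the line of equal values and dotted lines at 2-fold. Fgfr1, Fgfr2, Fgfr3 and Fgfr4 lie below the line of equal values and inside 2-fold, and Ret lies above 2-fold.

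Receptors for the other factors of the medium were also measured. The medium of the study holds EGF, LIF, insulin and transferrin. Egfr measured 1.11 RPKM (0.893–1.33) in control PGCs and 1.13 (0.963–1.29) in Klf9-OE PGCs, far below Fgfr1. Il6st, the shared LIF receptor subunit, was lower, at 34.3 (31.5–37.2) and 28.6 (26.3–30.9), with bounds that lie close. Lifr, the subunit specific for LIF, was higher, at 8.44 (7.43–9.45) and 10.4 (9.79–11.05). The intervals of this list were not widened for reads entered in pairs. Tfrc, the transferrin receptor, was higher, at 52.6 (50.6–54.7) and 57.4 (56.2–58.6). Insr, the insulin receptor, had 3.58 (3.31–3.84) and 3.82 (3.55–4.10), with overlapping intervals and a log2 fold change of 0.09. Igf1r, the IGF1 receptor, at 18.5 (17.4–19.6) and 9.80 (9.48–10.1), had a log2 fold change of -0.91 and an assembled transcript in the control library only. None of the 6 receptors in this list was changed 2-fold, and their median log2 fold change was 0.06.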

How the data were processed

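RNA-seq libraries of 1 control and 1 Klf9-OE culture were read by the authors as 51-mer single-end sequences, mapped to mm10 and RefSeq with TopHat2 and Bowtie, and quantified with Cufflinks. The versions are not given in the sources used here. The authors deposited FPKM per locus and the bounds of a 95% interval; FPKM and RPKM are the same for single-end reads. Cuffdiff output was not used. The kit does not mark strand, so overlapping antisense transcripts are not separated.

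Loci with the same gene name were summed, and names listed jointly were not split; none of them held an FGF receptor or ligand of this report. A gene was called changed at a log2(RPKM + 0.1) difference of at least 1, that is 2-fold. With 1 library per condition there is no test across replicates, and comparisons describe these libraries. Implied read numbers are the squared ratio of 2 RPKM to the upper half-width of the interval. For the share of even numbers, whole numbers were accepted within 0.06. For the exact intervals, the implied numbers were rounded to whole reads. The files hold no read totals. The calculations were tested on simulated data. The genes and lists were chosen with earlier results of these data known. Named genes were the 10 FGF genes and, from each other list, the 3 with the highest mean RPKM and up to 6 changed 2-fold with an RPKM of at least 1 in 1 library; others, such as Fgf9, Kit, Ror1, Egfr, Lifr, Sox9, Krt8, Klb, Frs2 and Shc1, were added after their values were seen. A gene that this rule would name is not reported here. Alternatives were pseudocounts of 0.01 and 1, a minimum RPKM of 1, an RPKM above 0 in both libraries, rescaling to the same upper quartile or sum, a 4-fold threshold, widened Klf9-OE intervals and joint names. Restriction to genes on the annotated transcript in both libraries was added after seeing the data. Python 3.11.15 was used with scipy 1.17.1, numpy 2.4.6, matplotlib 3.10.9 and pandas 2.3.3, and GENCODE M21 gave gene bounds.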

Additional observations from a re-analysis of the deposited data

Results flagged for a closer look

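Loci that Cufflinks assembled without a gene name entered no comparison. Within 5 kb of the 10 FGF genes, 3 such loci had an interval above 0 in the Klf9-OE library and no counterpart in the control library. A locus of 266 bases inside Fgfr1 (chr8:25567569-25567834) had an RPKM of 5.04 (2.12 to 7.96) and lies in an exon of a retained-intron transcript of Fgfr1 that GENCODE places from 25566000 to 25569323. A locus of 266 bases that ends 81 bases before the start of Fgfrl1 in the deposited files (chr5:108693883-108694148) had 4.198 (1.49 to 6.91) and overlaps the Fgfrl1 promoter window shown above. GENCODE starts Fgfrl1 further upstream, at 108692382, so that this locus lies inside the GENCODE gene. A locus 2998 bases beyond the end of Fgfr3 (chr5:33740133-33741110) had 2.77 (2.11 to 3.43) and lies in the last exon of the neighbour Letm1, from 33739673 to 33742612. The Klf9-OE library held 15127 loci without a gene name and the control library 6482, so such loci are more frequent there over the whole genome, and whether these differ between the conditions was not tested.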

How the results depend on the processing

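The log2 fold changes of the 10 FGF genes were also taken under pseudocounts of 0.01 and 1 and both rescalings. Their signs are no check of direction there. A pseudocount cannot change a sign, and the rescalings multiplied the Klf9-OE values by only 1.004 and 1.04. Of the 40 values, 39 moved by less than the combined half-widths of the Cufflinks intervals. The exception was Fgf7, at 1.73 with a pseudocount of 0.01. Rescaling to the same sum, which moved the median of all genes from -0.02 to 0.04, gave the receptors values from -0.07 for Fgfr1 to -0.68 for Fgfr4. The number of FGF genes lower by 2-fold was 1 as reported and 0 with a pseudocount of 1, with a minimum RPKM of 1 and at 4-fold, and the number higher was 0 as reported and 1 with a pseudocount of 0.01. Of the 10 FGF genes, 3 were lower with separate intervals, as were 3 with widened Klf9-OE intervals and 1 among the 5 genes on the annotated transcript in both libraries, where fewer genes were compared. Of 107 other pathway genes, 104 were above 0, and 11 were higher and 2 lower by 2-fold, beside 4.52% and 4.0% of all genes. Of the 11 higher genes, 9 were feedback and target genes, whose rise was known before their list was written. The others were Extl1 and B3galt6, and B3galt6 was listed at 0 in control PGCs under an assembled transcript. The number lower was 5 with a pseudocount of 0.01, 1 with a pseudocount of 1, with a minimum RPKM of 1 or at 4-fold, and 0 with an RPKM above 0 in both libraries or the annotated transcript in both. The number higher was 7 with a pseudocount of 1, 4 at 4-fold and 3 of 52 genes on the annotated transcript in both. No paired analysis was possible because each condition had 1 library, and for the same reason no library could be left out.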

Other observations

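The 3′ end of Fgf2 lies next to Nudt6, which is transcribed from the opposite strand. The files end Fgf2 at 37404830 and start Nudt6 at 37404982 on chromosome 3, whereas a GENCODE transcript of Fgf2 runs on to 37410108 through a 3′ untranslated region that begins at 37404795. In this longer region, both libraries held an unnamed locus at nearly the same place, from 37408701 to 37409072 at 2.16 RPKM (0.765–3.55) in the control library and from 37408619 to 37409044 at 2.68 (1.48–3.88) in the Klf9-OE library. These values exceed the 0.666 and 0.243 given for Fgf2, and their intervals overlap between the libraries. A further locus of the Klf9-OE library, from 37407149 to 37407676, had 2.21 with a lower bound of 0. Nudt6 was listed at 0 under an assembled transcript in both libraries. By position, the unnamed loci lie inside the last exon of the longer Fgf2 transcript and between the Nudt6 exons that end at 37405494 and start at 37409508. The strand of their reads is not known. The lower value of Fgf2 in Klf9-OE PGCs does not include these loci.

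An RPKM of 0 under an assembled transcript occurred for 583 of the 5471 named loci listed at 0 in the control library and 542 of 5639 in the Klf9-OE library. Ndst1, B3galt6, Fgf9, Star and Nudt6 are among them.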
